A study of Mus musculus with 101 samples.

Results

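The genes described here are 34 genes of fatty acid oxidation and synthesis, chosen by name as a pathway and found among the 21330 mouse genes with an FPKM (fragments per kilobase of gene and M mapped reads, M being 1000000) above 0 in at least 1 of 101 RNA-seq libraries. They fall into 6 roles. 7 activate fatty acids and carry them into mitochondria, 12 act in mitochondrial beta-oxidation, 3 pass its electrons to the respiratory chain, 2 act in peroxisomal beta-oxidation, 3 bind or sense fatty acids, and 7 make, desaturate or elongate them. C57 mice were injected intraperitoneally with lipopolysaccharide (LPS, a component of the bacterial outer membrane that provokes systemic inflammation) at 5 mg/kg, or with phosphate-buffered saline (PBS). The prefrontal cortex (PFC) and visual cortex (VCX) were taken 1, 2 or 14 days later. Each area gave astrocyte IP libraries, made from RNA pulled down with ribosomes that carry a hemagglutinin (HA) tag in astrocytes, and input libraries, made from the cleared lysate. Another kind of library came from whole PFC tissue on day 1. The 26 groups held 4 libraries each, except 3 groups with 3 libraries, all of them LPS groups: PFC IP on day 2, VCX input on day 2 and whole tissue. The IP and input libraries came from both sexes and the whole-tissue libraries from females only. LPS and PBS mice alike gave HA pull-down libraries; the mouse line or promoter that puts it in astrocytes is not given in the sources used here. Nor do the labels say which libraries came from the same animal, so that p-values measure the spread between libraries, which may be technical. IP and input libraries of the 3 days were sequenced as different projects, and day and project cannot be told apart.

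Fatty acids are first joined to coenzyme A by acyl-CoA synthetases. Long chains then enter mitochondria through the carnitine shuttle, where beta-oxidation shortens them step by step and hands electrons to the respiratory chain; peroxisomes shorten very long and branched chains. Synthesis runs in the cytosol from acetyl-CoA by way of malonyl-CoA, which also inhibits the carnitine shuttle, and desaturases and elongases then shape the product. In the brain, astrocytes are regarded as the main site of fatty acid oxidation and as a source of lipids for neurons.

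The promoters of Fasn, Fabp7 and Acsl5 are printed because these are the synthesis gene, the binding protein and the activating enzyme with the largest changes in astrocyte IP on day 1 within their roles. The windows run from 250 bases before to 50 bases after a RefSeq gene start (GRCm38.p6, the assembly named mm10), 5′ to 3′ on the gene's strand. Fasn lies at chr11:120805846-120824547 on the minus strand and its window at chr11:120824498-120824797. Fabp7 lies at chr10:57784881-57788450 on the plus strand, with its window at chr10:57784673-57784972. Acsl5 lies at chr19:55251938-55297720 on the plus strand, with its window at chr19:55253119-55253418. The whole Acsl5 window lies inside that span, downstream of its first base, and which start is used in astrocytes was not tested. Capitals mark CCAAT, searched on both strands and therefore printed as CCAAT or ATTGG.
Fasn: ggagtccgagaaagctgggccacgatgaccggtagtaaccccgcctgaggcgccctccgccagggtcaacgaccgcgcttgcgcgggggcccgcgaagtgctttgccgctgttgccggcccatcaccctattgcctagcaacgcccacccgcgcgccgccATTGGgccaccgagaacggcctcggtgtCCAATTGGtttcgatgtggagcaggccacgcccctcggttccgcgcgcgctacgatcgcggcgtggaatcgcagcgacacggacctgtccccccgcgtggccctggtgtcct
Fabp7: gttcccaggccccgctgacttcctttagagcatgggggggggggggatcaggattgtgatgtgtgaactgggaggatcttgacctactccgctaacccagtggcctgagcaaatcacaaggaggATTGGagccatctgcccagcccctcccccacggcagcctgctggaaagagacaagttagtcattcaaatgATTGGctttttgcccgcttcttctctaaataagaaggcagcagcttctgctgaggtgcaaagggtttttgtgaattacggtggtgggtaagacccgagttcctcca
Acsl5: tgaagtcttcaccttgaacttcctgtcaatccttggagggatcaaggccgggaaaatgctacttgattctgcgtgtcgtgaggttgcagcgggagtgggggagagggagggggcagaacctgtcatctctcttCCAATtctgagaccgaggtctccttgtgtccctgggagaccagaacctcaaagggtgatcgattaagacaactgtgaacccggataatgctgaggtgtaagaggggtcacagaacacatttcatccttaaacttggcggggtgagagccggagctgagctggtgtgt
The Fasn window held 3 matches, beginning at bases 161, 189 and 192, and the last 2 overlap. Fabp7 held 2 matches, at bases 125 and 195, and Acsl5 held 1, at base 134. Of 32851 mouse promoter windows of this length, 37.4% held the letters at least once, 11.7% at least 2 times and 3.37% at least 3 times. Windows of 28 of the 34 genes were searched, and 15 of these 28 held CCAAT. Fabp5, Hsd17b4, Scd1, Acaa2, Scd2 and Decr1 were left out of the search, so no result for these letters applies to them. The letters TCACNCCAC, a sterol response element, occurred in 1.24% of all windows and, among the 31 searched, in 1 of Ehhadh. DR1, AGGNCA repeated after 1 base and bound by PPAR receptors, was searched in the same way. It occurred in 0.381% of all windows and in none of the 31 searched. A match is a run of letters, not a site shown to be used.

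The libraries held 4.21 M to 72.94 M reads (median 40.8 M), as recovered from the steps of the FPKM values. Astrocyte IP libraries of day 1 held 43.84 M to 72.94 M, and 3 input libraries of day 14 held under 10 M. In PBS libraries of day 1 all 10 astrocyte markers were higher in IP than in input and all 10 neuronal and all 10 microglial markers were lower. Their summed level in IP was 13900 to 15300 FPKM for astrocyte markers, 132 to 160 FPKM for neuronal markers and 30.3 to 46.3 FPKM for microglia and macrophage markers (8 libraries). No defining marker of these lists was at 0 in every library of a group. 3 libraries stood apart for the genes described here. In PBS replicate 4 of day 1 VCX IP, Acads (26.34 FPKM), Acadvl (96.17), Echs1 (111.1) and Eci1 (84.49) lay above the other 3 replicates, which held 16.45 to 17.48, 71.71 to 73.48, 66.78 to 76.9 and 60.87 to 68.84 FPKM. LPS replicate 3 of day 1 PFC IP was the highest of its group for Acsl5 and the lowest for Acacb and Hadhb. In whole tissue, PBS replicate 3 carried an inflammatory profile. The sample names inside the files of PBS replicates 3 and 4 of whole tissue were not the titles in their labels, and the name inside that of replicate 4 was the title of replicate 3. For the LPS and area comparisons that hold these libraries, counts and changed calls are given with and without them.

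In PBS mice the pathway was concentrated in the astrocyte fraction: 33 of the 34 genes were higher in IP than in input on every day, and 1 gene, Acsl5, was lower. In these contrasts 88.8% of all genes tested were called on day 1, 87.8% on day 2 and 88.3% on day 14 (limma, adjusted p under 0.05), of which 44.9%, 45.2% and 46.0% of all genes were higher and 43.9%, 42.6% and 42.3% lower. A gene is called here when the p-value of limma, adjusted over all genes tested by the Benjamini-Hochberg method, is under 0.05, and changes are differences of log2(FPKM + 0.1), a scale that understates the change of low genes. The median difference of the 34 genes was 3.36 on day 1, 3.33 on day 2 and 3.40 on day 14 on the log2 scale, where the median of all genes was 0.01, 0.02 and 0.05. The 5 largest differences on day 1 were those of Acsbg1, the acyl-CoA synthetase typical of astrocytes (log2 4.46), Cpt1a, the entry enzyme of the carnitine shuttle (4.30), Scd1, a stearoyl-CoA desaturase (4.29), Acadl, the long-chain acyl-CoA dehydrogenase (4.17), and Ppara, the nuclear receptor that drives fatty acid oxidation genes (4.02). The smallest were those of Acsl5 (-3.13), Acaca, the acetyl-CoA carboxylase of synthesis (1.26), Fasn, fatty acid synthase (2.19), Echs1, the short-chain enoyl-CoA hydratase (2.36), and Ehhadh, the peroxisomal bifunctional enzyme (2.49). Acsl5, a long-chain acyl-CoA synthetase, differed by -2.93 on day 2 and -2.84 on day 14. It was the gene of the 34 with the lowest level in IP relative to input. In LPS libraries the count was again 33 higher and 1 lower on each day, where 89.9%, 87.1% and 87.4% of all genes were called (45.3%, 42.8% and 45.1% higher, and 44.6%, 44.3% and 42.2% lower). With FPKM as deposited and no further scaling, the median of all genes in the IP minus input contrast of PBS libraries moved to -0.64, -0.64 and -0.65, and the counts of the 34 genes were as before.

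**Figure D1:**
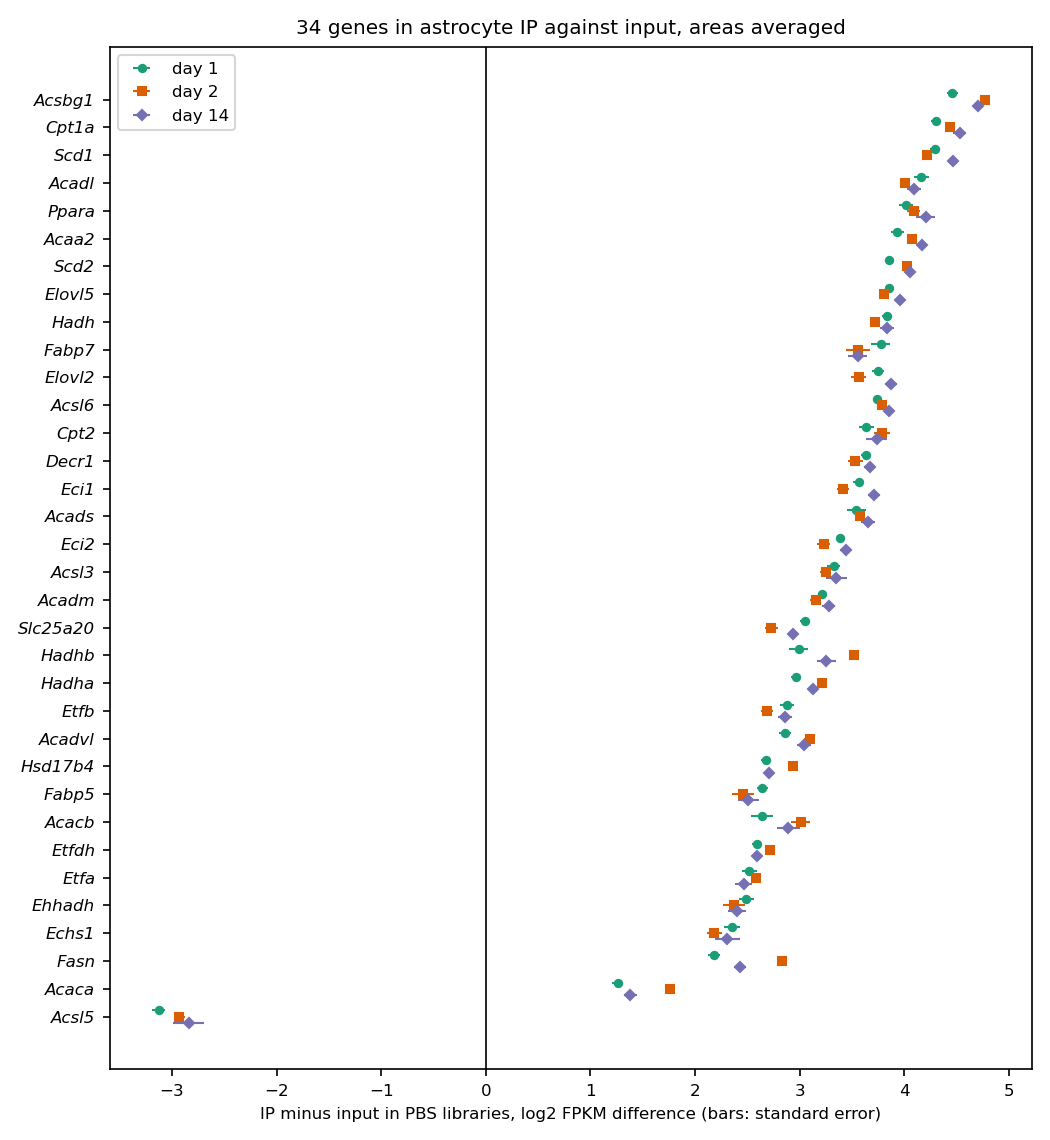
Difference between astrocyte IP and input in PBS libraries (x axis, log2 FPKM; points are estimates averaged over PFC and VCX, bars are standard errors) for the 34 genes (y axis), with a colour for each day. All points lie right of 0 except those of Acsl5, at -3.13, -2.93 and -2.84.

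Levels within the pathway spanned nearly 3 orders of magnitude in astrocyte IP (FPKM, mean ± SD over 24 PBS libraries of both areas and all days). Scd2, the main stearoyl-CoA desaturase of brain, was highest at 1735 ± 136 FPKM in IP, against 177 ± 15 in input. Acsbg1 followed at 724 ± 95.9 in IP and 46.5 ± 5.92 in input, then Acsl6, the synthetase that prefers docosahexaenoic acid, at 545 ± 24 in IP and 63.4 ± 4.82 in input. The next levels, those of Acsl3 (375 ± 88.2), Scd1 (309 ± 64.8), Fabp7 (258 ± 64.5), Fabp5 (227 ± 49.6) and Elovl5 (222 ± 26.3 FPKM in IP), did not differ between neighbours beyond their spread. The 12 genes of mitochondrial beta-oxidation ran below these, with Acaa2 at 113 ± 13.6, Eci2 at 96.3 ± 6.18, Decr1 at 52.6 ± 3.6 and Acads at 24.4 ± 3.74 FPKM in IP. Cpt1a, of the carnitine shuttle, stood at 74.8 ± 5.42 FPKM in IP. The lowest in IP were Ppara (10.7 ± 0.768), Acsl5 (3.49 ± 0.884), Ehhadh (3.48 ± 0.331) and Acacb, the mitochondrial acetyl-CoA carboxylase (2.14 ± 0.327). Acsl5 stood at 43.8 ± 2.87 FPKM in input.

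One day after LPS, synthesis genes fell and several oxidation genes rose in astrocyte IP. In PFC IP 7 of the 34 genes were higher and 8 lower in LPS than in PBS mice, where 21% of all genes were called (11.1% higher and 9.92% lower). In VCX IP 10 were higher and 9 lower, against 21.9% of all genes (11.3% higher and 10.6% lower). The synthesis, desaturation and elongation genes gave 5 lower of 7 and none higher in each area, with a median log2 change of -0.28 in PFC and -0.37 in VCX. The 17 genes of mitochondrial oxidation, electron transfer and peroxisomal oxidation gave 4 higher and none lower in PFC (median 0.19), and 7 higher and 1 lower in VCX (median 0.18). The median of all genes was -0.01 in PFC and -0.02 in VCX. Fewer cells of a type and less RNA per cell cannot be told apart in such libraries. Without LPS replicate 3, the PFC count was 11 higher and 8 lower, with 20.2% of all genes called (10.8% higher and 9.46% lower). Without PBS replicate 4, the VCX count was 12 higher and 11 lower, with 30.2% called (15.5% higher and 14.7% lower). No gene of any kind differed in its LPS effect between PFC and VCX at adjusted p under 0.05 (0.0% of 13163 in IP; 427 genes and none of the 34 at an unadjusted p under 0.05).

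**Figure D2:**
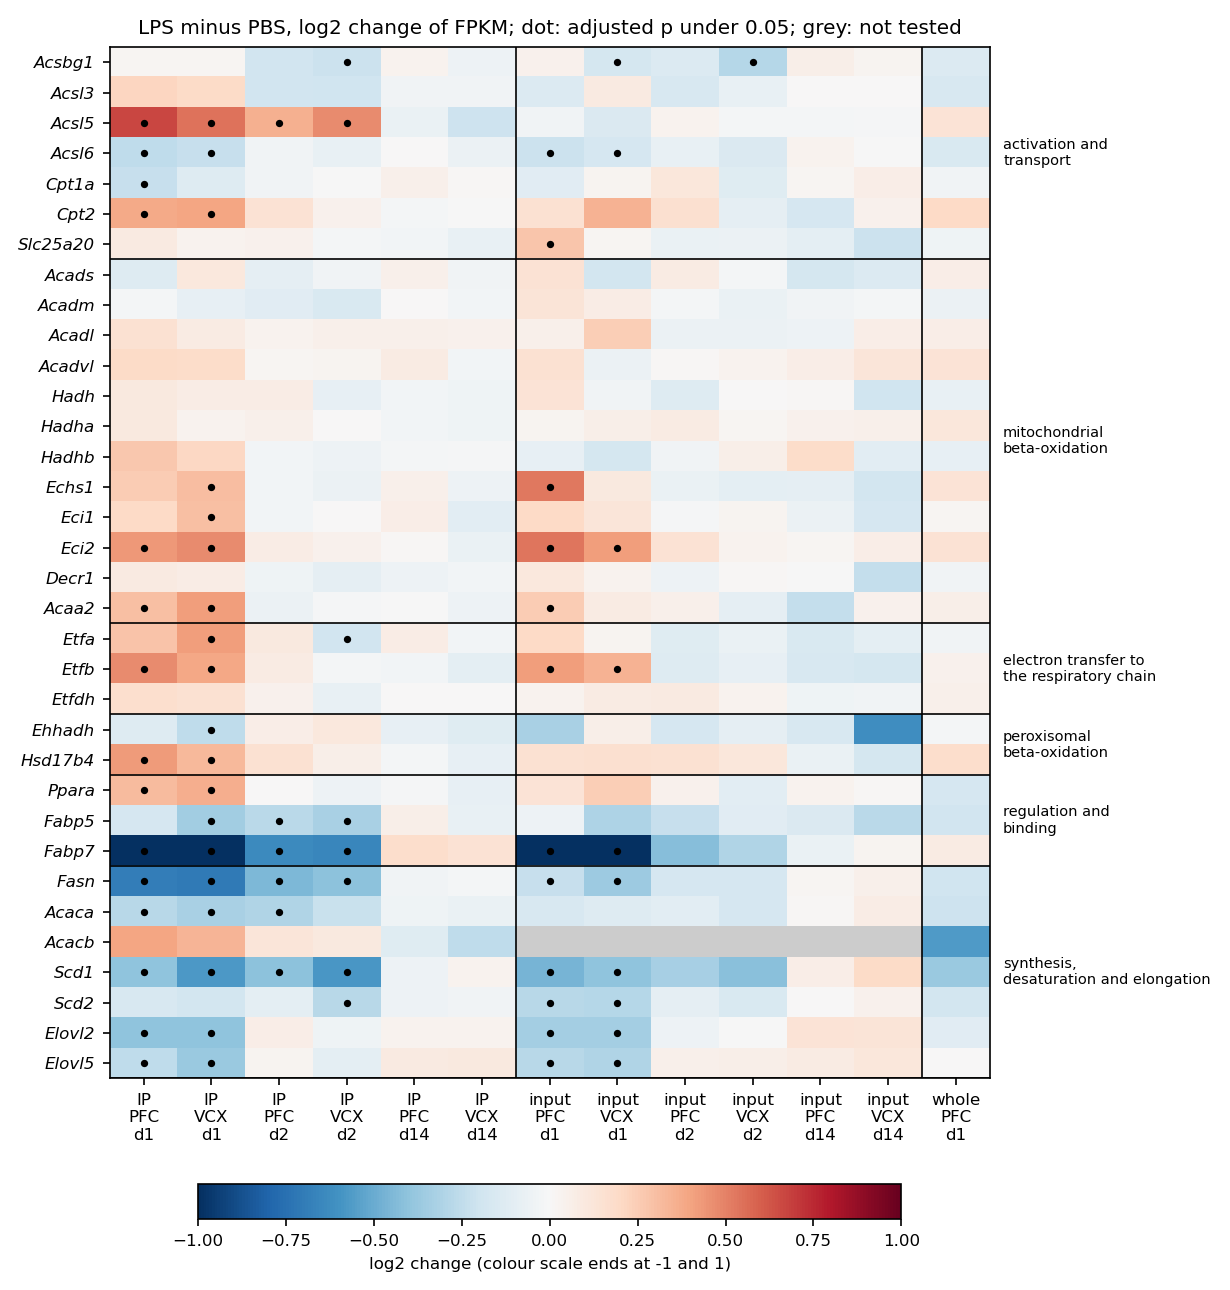
Log2 change of FPKM, LPS minus PBS, for the 34 genes (rows, by role) in 13 comparisons (columns: IP, input and whole tissue by area and day). Colour gives the change, ending at -1 and 1, a dot marks an adjusted p under 0.05 and grey marks a gene not tested; calls of synthesis genes are lower in every case, and the day 14 columns hold no call.

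Among activating enzymes and carriers, Acsl5 rose and Acsl6 fell in both areas on day 1. Acsl5 had 5.355, 3.928, 7.84 and 4.512 FPKM in LPS libraries of PFC IP, against 3.062, 3.43, 3.611 and 3.011 in PBS libraries. In VCX IP it had 4.367, 4.179, 4.128 and 3.658 FPKM in LPS libraries, against 2.889, 2.177, 2.545 and 3.512 in PBS libraries. The groups did not overlap in either area, and the log2 change was 0.67 ± 0.155 (SE; adjusted p = 0.0053) in PFC and 0.54 ± 0.155 (adjusted p = 0.0193) in VCX. Without LPS replicate 3, at 7.84 FPKM, the PFC change of Acsl5 was 0.49 ± 0.127 (adjusted p = 0.0129). The VCX call of Acsl5 was lost on leaving out any of 4 libraries in turn, with an adjusted p of up to 0.0672. In input, where Acsl5 is higher, PFC libraries held 45.18, 44.18, 41.62 and 39.79 FPKM after LPS and 36.97, 44.52, 43.38 and 45.85 after PBS, which overlap. In VCX input the change of Acsl5 was not called, but it had an unadjusted p under 0.05 (limma). The LPS effect on Acsl5 was 0.71 ± 0.12 larger in IP than in input on the log2 scale (areas averaged, adjusted p = 9.39e-05). Markers of other cells moved in the same IP libraries. The 10 microglia and macrophage markers summed to 53.9 to 71.5 FPKM after LPS and 30.3 to 46.3 after PBS, with 7 higher and 1 lower in PFC IP and 8 higher and 1 lower in VCX IP. The 8 neutrophil and monocyte markers summed to 104 to 187 FPKM after LPS and 6.61 to 35.9 after PBS, and all 8 were called higher in PFC IP. Endothelial markers summed to 5.9 to 12.1 FPKM after LPS and 4.53 to 7.55 after PBS. Their part in the change of Acsl5 was not tested.

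Acsl6 had 448.4, 477.7, 453.6 and 503.4 FPKM in LPS libraries of PFC IP, against 571.0, 547.4, 558.8 and 579.3 in PBS libraries. It fell by 0.25 on the log2 scale in PFC (SE 0.0606, adjusted p = 0.00652) and by 0.23 in VCX (adjusted p = 0.0128). Acsbg1, whose high level marks the astrocyte fraction, changed by 0.02 in each area (adjusted p = 0.909 in PFC and 0.895 in VCX), with 664.3, 667.5, 680.4 and 764.2 FPKM after LPS and 731.1, 692.2, 680.9 and 656.3 after PBS in PFC. The carnitine shuttle moved unevenly. Cpt1a, the outer-membrane palmitoyltransferase and the step that malonyl-CoA inhibits, had 67.33, 65.38, 65.59 and 65.92 FPKM after LPS and 79.91, 77.37, 75.71 and 78.99 after PBS in PFC IP, a fall of 0.23 ± 0.0546 (adjusted p = 0.00616). In VCX IP its groups overlapped and the change was -0.13 (adjusted p = 0.0977; called at -0.15 without PBS replicate 4). Cpt2, the inner-membrane palmitoyltransferase that completes the shuttle, rose instead. It had 17.7, 16.31, 18.37 and 16.42 FPKM after LPS and 13.78, 12.45, 12.78 and 13.99 after PBS in PFC IP, with no overlap. The log2 change of Cpt2 was 0.38 ± 0.0752 in PFC (adjusted p = 0.00152) and 0.40 ± 0.0752 in VCX (adjusted p = 0.0011). Acsl3 and the carnitine carrier Slc25a20 were not called in either area of IP on day 1.

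In mitochondrial beta-oxidation 2 of 12 genes rose in PFC IP and 4 of 12 in VCX IP on day 1, and none fell, where 11.1% and 11.3% of all genes were called higher. Eci2, an enoyl-CoA isomerase needed for unsaturated chains and counted here with the mitochondrial genes, changed most. It had 139.8, 134.8, 138.7 and 144.3 FPKM in LPS libraries of PFC IP, against 99.01, 103.3, 110.9 and 101.6 in PBS libraries. In VCX IP the values of Eci2 were 124.8, 137.7, 129.0 and 129.6 after LPS, and 93.01, 85.7, 93.17 and 100.8 after PBS. Every LPS library lay above every PBS library of its area, and the log2 change was 0.44 ± 0.055 in PFC (adjusted p = 2.96e-05) and 0.47 ± 0.055 in VCX (adjusted p = 1.26e-05). Acaa2, the thiolase that releases acetyl-CoA, rose by 0.30 ± 0.0963 in PFC, where the groups overlapped (adjusted p = 0.0343), and by 0.42 ± 0.0963 in VCX (adjusted p = 0.00484). Echs1 and the isomerase Eci1 were called in VCX, at 0.31 (adjusted p = 0.0334) and 0.30 (adjusted p = 0.0103), and both groups overlapped through PBS replicate 4, whose Echs1 stood at 111.1 FPKM. Without that library the change was 0.44 for Echs1 and 0.37 for Eci1. Acads, the short-chain acyl-CoA dehydrogenase (0.26), and Acadvl, the very-long-chain one (0.28), were then called as well. Hadha, a subunit of the trifunctional protein, changed by 0.10 ± 0.0603 in PFC (adjusted p = 0.289) and 0.03 ± 0.0603 in VCX (adjusted p = 0.74). Hadha had 76.04 to 80.75 FPKM after LPS and 70.15 to 78.09 after PBS in PFC IP, which overlap. Its partner Hadhb and the dehydrogenases Acadm, Acadl and Hadh were called in neither area, nor was Decr1. Without LPS replicate 3 of PFC IP, the lowest of its group for Hadhb, Hadhb was called at 0.42 (adjusted p = 0.00433) and Eci1 at 0.25 (adjusted p = 0.0396) in PFC.

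Of the 3 electron carriers of beta-oxidation, 1 rose in PFC IP and 2 in VCX IP on day 1. Among all genes, 11.1% in PFC IP and 11.3% in VCX IP were called higher. Etfb, the beta subunit of the electron transfer flavoprotein, had 101.0, 109.5, 98.36 and 112.7 FPKM in LPS libraries of PFC IP, against 77.08, 81.42, 78.78 and 68.27 in PBS libraries. Its log2 change was 0.47 ± 0.0985 in PFC (adjusted p = 0.00236) and 0.39 ± 0.0985 in VCX (adjusted p = 0.00956), where PBS replicate 4, at 97.8 FPKM, made the groups overlap. Without that library the VCX change of Etfb was 0.50 ± 0.078 (adjusted p = 0.000229). Etfa, the alpha subunit, had 44.95, 45.23, 47.25 and 49.63 FPKM after LPS and 30.53, 27.09, 40.76 and 42.17 after PBS in VCX IP (0.42 ± 0.1, adjusted p = 0.00614). In PFC Etfa missed the threshold at 0.29 (adjusted p = 0.0537), and it was called at 0.34 (adjusted p = 0.0328) without LPS replicate 3. Etfdh, the dehydrogenase that passes the electrons to ubiquinone, was not called. In the peroxisome, Hsd17b4, the D-bifunctional protein, had 129.9, 133.0, 131.8 and 127.0 FPKM after LPS and 96.06, 96.9, 98.61 and 98.23 after PBS in PFC IP. The 2 groups of Hsd17b4 were tight and far apart, and the change was 0.43 ± 0.0615 in PFC (adjusted p = 0.000101) and 0.33 ± 0.0615 in VCX (adjusted p = 0.00107). Ehhadh moved the other way, with 2.753, 2.916, 3.055 and 2.945 FPKM after LPS and 3.657, 3.385, 3.462 and 3.374 after PBS in VCX IP. This fall of Ehhadh was 0.26 ± 0.0771 on the log2 scale (adjusted p = 0.0252), and in PFC IP the change was -0.13 (adjusted p = 0.265).

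Of the regulator and binding proteins, Ppara rose and Fabp7 fell in both areas. Ppara had 13.88, 14.25, 14.18 and 14.1 FPKM in LPS libraries of PFC IP, against 10.97, 11.69, 11.7 and 11.13 in PBS libraries. In VCX IP it had 12.76, 14.21, 12.26 and 12.71 FPKM after LPS, against 9.58, 9.455, 10.02 and 10.85 after PBS. The groups of Ppara did not overlap, and the change was 0.32 ± 0.0618 in PFC (adjusted p = 0.00142) and 0.36 ± 0.0618 in VCX (adjusted p = 0.000441). Fabp7, the fatty acid binding protein of astrocytes and radial glia, showed the largest change of the 34 genes on day 1. It had 169.1, 111.2, 193.2 and 122.1 FPKM in LPS libraries of PFC IP, against 272.3, 388.3, 331.5 and 296.2 in PBS libraries. In VCX IP the values of Fabp7 were 146.7, 157.2, 113.8 and 91.07 after LPS, and 311.8, 209.4, 423.1 and 313.9 after PBS. Every LPS library was below every PBS library, although the replicates of Fabp7 spread widely. The log2 change was -1.13 ± 0.222 in PFC (fold 0.458, adjusted p = 0.00256) and -1.31 ± 0.222 in VCX (fold 0.404, adjusted p = 0.000846). Fabp5, the epidermal binding protein, fell by 0.35 ± 0.0736 in VCX (adjusted p = 0.00241), where 1 PBS library, at 192.9 FPKM, lay within the LPS range of 172.3 to 197.7. In PFC the change of Fabp5 was -0.17 (adjusted p = 0.12). Neuronal markers in these IP libraries summed to 121 to 167 FPKM after LPS and 132 to 160 after PBS, with none of 10 called in PFC, and astrocyte markers to 15300 to 16500 after LPS and 13900 to 15300 after PBS.

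**Figure D3:**
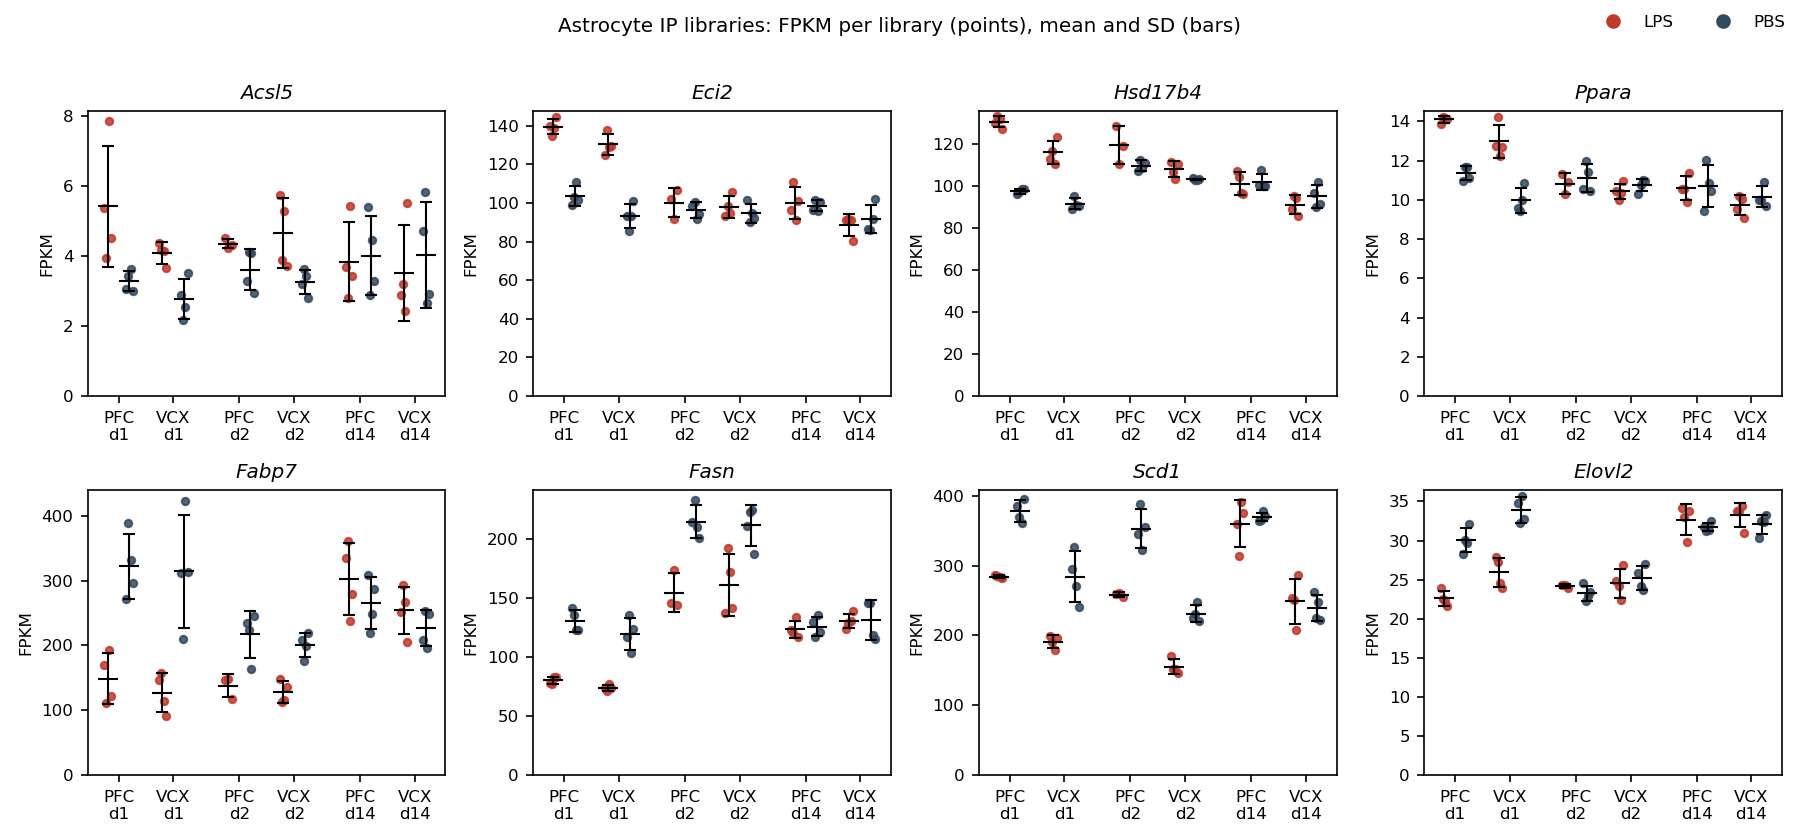
FPKM in each astrocyte IP library (y axis, points) with the group mean and SD (bars) for 8 genes, by area and day (x axis), LPS in red and PBS in dark blue. On day 1 the LPS and PBS libraries of all 8 genes lie apart in both areas, with Acsl5, Eci2, Hsd17b4 and Ppara higher and Fabp7, Fasn, Scd1 and Elovl2 lower after LPS; on day 14 they overlap.

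In synthesis, Fasn, the enzyme that builds palmitate, had 77.94, 77.03, 82.9 and 82.94 FPKM in LPS libraries of PFC IP, against 141.4, 135.0, 122.7 and 122.6 in PBS libraries. In VCX IP Fasn had 73.41, 70.76, 77.37 and 73.49 FPKM after LPS, against 116.7, 135.8, 103.2 and 123.2 after PBS. The LPS libraries were tightly grouped and the PBS libraries lay well above them. Fasn changed by -0.69 ± 0.0784 in PFC (fold 0.620, adjusted p = 1.08e-05) and -0.70 ± 0.0784 in VCX (adjusted p = 7.84e-06). Acaca, which supplies malonyl-CoA, fell by 0.28 ± 0.0696 in PFC (adjusted p = 0.00815) and by 0.33 ± 0.0696 in VCX (adjusted p = 0.00267). Acacb, the carboxylase at the mitochondrial membrane, had 2.942, 3.473, 1.838 and 3.303 FPKM after LPS and 2.139, 2.188, 1.846 and 2.376 after PBS in PFC IP. Its groups overlapped through LPS replicate 3, and its change of 0.39 ± 0.155 in PFC missed the threshold (adjusted p = 0.0846); without that library Acacb was called at 0.58. Scd1 had 287.1, 285.4, 283.5 and 281.8 FPKM after LPS and 385.9, 369.4, 360.7 and 395.7 after PBS in PFC IP. It changed by -0.40 ± 0.0879 in PFC (adjusted p = 0.00358) and -0.58 ± 0.0879 in VCX (adjusted p = 0.000162). Scd2, the more abundant desaturase, had 1374 to 1578 FPKM after LPS and 1632 to 1747 after PBS in PFC IP, a change of -0.16 ± 0.0666 that was not called (adjusted p = 0.105), and -0.19 in VCX (adjusted p = 0.0558; called at -0.20 without PBS replicate 4). Elovl2, the elongase of very long polyunsaturated chains, had 23.91, 22.54, 22.29 and 21.66 FPKM after LPS and 28.33, 30.06, 29.71 and 32.16 after PBS in PFC IP. The fall of Elovl2 was 0.40 ± 0.0695 in each area (adjusted p = 0.000529 in PFC and 0.000524 in VCX). Elovl5, which elongates shorter polyunsaturated chains, fell by 0.26 ± 0.0759 in PFC (adjusted p = 0.0235) and by 0.37 ± 0.0759 in VCX (adjusted p = 0.00202); the PFC call was lost on leaving out any of 6 libraries in turn, with an adjusted p of up to 0.0754.

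On day 2 the falls of Fasn, Scd1 and Fabp7 were present in both areas of astrocyte IP, and no oxidation gene rose. In PFC IP 1 gene was higher and 5 lower, where 7.95% of all genes were called (5.17% higher and 2.77% lower), and in VCX IP 1 was higher and 7 lower, where 7.25% were called (4.31% higher and 2.94% lower). Both counts are sensitive to single libraries. The PFC count became 3 without PBS replicate 2 and 2 without LPS replicate 3, and the VCX count 5 without PBS replicate 2 or LPS replicate 1 and 4 without PBS replicate 3. Scd1 had 259.4, 261.1 and 254.6 FPKM in LPS libraries of PFC IP, against 344.9, 389.0, 322.9 and 355.2 in PBS libraries. In VCX IP Scd1 had 170.7, 152.0, 152.0 and 146.3 FPKM after LPS, against 224.3, 230.2, 248.4 and 220.8 after PBS. Its groups were apart in both areas, with a change of -0.41 ± 0.0592 in PFC (adjusted p = 0.000475) and -0.58 ± 0.0545 in VCX (adjusted p = 9.39e-06). Fasn had 145.5, 173.7 and 144.0 FPKM after LPS and 214.1, 233.0, 210.3 and 200.6 after PBS in PFC IP (-0.45 ± 0.106, adjusted p = 0.0171). In VCX IP Fasn had 137.3, 192.3, 171.6 and 141.3 FPKM after LPS and 210.7, 222.4, 224.4 and 187.2 after PBS, which overlap at 1 library of each group (-0.41 ± 0.0974, adjusted p = 0.0189). The calls of Fasn were lost on leaving out any of 3 libraries in PFC and any of 4 in VCX, with an adjusted p of up to 0.115 and 0.071.

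Fabp7 had 147.1, 148.5 and 117.4 FPKM in LPS libraries of PFC IP on day 2, against 235.3, 223.2, 164.2 and 245.0 in PBS libraries, and changed by -0.64 ± 0.142 (adjusted p = 0.0139). In VCX IP Fabp7 had 148.5, 112.5, 116.5 and 135.9 FPKM after LPS and 207.8, 176.6, 198.8 and 219.3 after PBS (-0.66 ± 0.131, adjusted p = 0.00759). The libraries of the 2 treatments were apart in both areas. Fabp5 fell by 0.27 ± 0.0775 in PFC (adjusted p = 0.0443) and by 0.32 ± 0.0712 in VCX (adjusted p = 0.0127). On leaving out 1 library at a time, the PFC call was lost 1 time for Fabp7 (adjusted p of up to 0.0583) and 4 times for Fabp5 (up to 0.132), and the VCX call of Fabp5 1 time (up to 0.0592). Acsl5 was the 1 gene called higher, with 4.499, 4.236 and 4.315 FPKM after LPS and 3.297, 4.109, 4.079 and 2.948 after PBS in PFC IP. The change of Acsl5 was 0.36 ± 0.083 in PFC (adjusted p = 0.0157) and 0.47 ± 0.0763 in VCX (adjusted p = 0.00105), and its LPS effect was 0.40 ± 0.0834 larger in IP than in input (adjusted p = 0.00479), a contrast in which 3.44% of all genes were called. The PFC call of Acsl5 was lost on leaving out any of 3 libraries in turn (adjusted p of up to 0.068). Beside it, microglia and macrophage markers in IP summed to 54.8 to 83.2 FPKM after LPS and 30.5 to 41.1 after PBS on day 2, and neutrophil and monocyte markers to 34.5 to 111 and 1.68 to 17.5; their part was not tested. Acaca fell by 0.30 ± 0.0733 in PFC (adjusted p = 0.0187), a call lost on leaving out any of 3 libraries in turn (up to 0.0933). In VCX, Scd2 had 1434, 1489, 1571 and 1514 FPKM after LPS and 1776, 1810.0, 1861 and 1814 after PBS (-0.28 ± 0.0468, adjusted p = 0.00142), Acsbg1 fell by 0.21 ± 0.053 (adjusted p = 0.026) and Etfa fell by 0.19 ± 0.0542 (adjusted p = 0.0487). The call of Acsbg1 was lost on leaving out any of 6 libraries in turn (adjusted p of up to 0.112). In PFC the change of Scd2 was -0.10 (adjusted p = 0.278) and that of Acsbg1 -0.19 (adjusted p = 0.0539). Etfa did not reach an unadjusted p under 0.05 (limma) in PFC or in the areas averaged. Its LPS effect differed between areas at an unadjusted p under 0.05, but the adjusted p was not under 0.05. Cpt1a (-0.04 in PFC and -0.01 in VCX), Hadha (0.05 and 0.00), Ppara (0.00 and -0.05) and Elovl2 (0.07 and -0.04) were not called.

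The LPS effect itself differed between days for many of these genes. Averaged over areas, the effect in IP was different on day 2 and day 1 for 16 of the 34 genes, 5 higher and 11 lower, where 18% of all genes were called (8.14% higher and 9.86% lower). Eci2 (-0.40 ± 0.0742, adjusted p = 0.000143), Ppara (-0.37 ± 0.0668, adjusted p = 8.66e-05), Hsd17b4 (-0.28, adjusted p = 0.00104) and Cpt2 (-0.30, adjusted p = 0.0064) had a lower LPS effect on day 2 than on day 1, and none of these 4 was called on day 2. Elovl2 (0.41 ± 0.0726, adjusted p = 7.79e-05), Elovl5 (0.27, adjusted p = 0.0185), Fabp7 (0.57 ± 0.192, adjusted p = 0.0332) and Fasn (0.26, adjusted p = 0.0333) had a higher LPS effect on day 2 than on day 1; Elovl2 and Elovl5 were not called on day 2, and Fabp7 and Fasn were called lower. The difference between days was no longer called on leaving out any of 11 libraries in turn for Fabp7 (adjusted p of up to 0.0651) and any of 9 for Fasn (up to 0.0913). The effect on Scd1 was not called different between day 2 and day 1. These differences are between days that were also different sequencing projects.

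By day 14 no gene of the 34 was called in astrocyte IP of either area (limma), nor was any other gene (0.0% of 12958). At an unadjusted p under 0.05 there were 172 genes in PFC and 273 in VCX, of which none in PFC and 1 in VCX (Acacb) were among the 34; limma-voom on recovered reads also called none of the 34. Fasn had 122.4, 120.0, 133.4 and 117.2 FPKM in LPS libraries of PFC IP, against 129.6, 116.9, 135.5 and 120.7 in PBS libraries, a log2 change of -0.03 (-0.02 in VCX). Fabp7 had 334.5, 360.8, 237.1 and 279.4 FPKM after LPS and 308.4, 219.6, 247.9 and 286.5 after PBS in PFC IP (0.18 in PFC and 0.14 in VCX). The groups overlapped for both genes, and the adjusted p was 1.0 for each. The day 14 effect differed from the day 1 effect for 20 of the 34 genes, 9 higher and 11 lower, where 23.6% of all genes were called (11.6% higher and 12% lower); Fabp7 (1.38, adjusted p = 4.65e-07), Fasn (0.68, adjusted p = 6.56e-08) and Eci2 (-0.48, adjusted p = 2.73e-06) were among them.

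Input libraries, in which RNA of all cells is mixed, shared the fall of synthesis genes on day 1. Acacb was too low to be tested there, and of 33 genes 5 were higher and 7 lower in PFC input, where 16.5% of all genes were called (8.5% higher and 8.01% lower), and 2 were higher and 8 lower in VCX input, where 16.9% were called (8.74% higher and 8.12% lower). Of the 6 synthesis genes tested, 5 fell in each area. Fabp7 had 20.43, 11.93, 21.33 and 13.31 FPKM in LPS libraries of PFC input, against 24.66, 32.6, 40.35 and 35.25 in PBS libraries (-1.05 ± 0.211, adjusted p = 0.00464; -1.20 ± 0.211 in VCX, adjusted p = 0.00165). Scd1 had 22.98, 21.47, 23.85 and 23.35 FPKM after LPS and 33.47, 30.58, 29.64 and 29.55 after PBS in PFC input (-0.47 ± 0.0599, adjusted p = 5.97e-05; -0.40 in VCX, adjusted p = 0.000196). The LPS libraries of both genes lay below the PBS libraries. Scd2 fell by 0.28 in PFC input (adjusted p = 0.00179) and by 0.29 in VCX input (adjusted p = 0.00112), Elovl5 by 0.28 (adjusted p = 0.00169) and 0.30 (adjusted p = 0.000669), and Elovl2 by 0.34 in each area (adjusted p = 0.0433 in PFC and 0.0416 in VCX). Fasn had 41.23, 37.24, 38.71 and 41.09 FPKM after LPS and 46.99, 43.96, 45.61 and 43.76 after PBS in PFC input. Its change of -0.23 ± 0.0589 in PFC input (adjusted p = 0.0133) and -0.37 in VCX input (adjusted p = 0.000386) was smaller than in IP, and the difference between fractions was -0.39 ± 0.0708 (adjusted p = 0.000249). Acsl6 fell by 0.22 in PFC input (adjusted p = 0.00878) and by 0.17 in VCX input (adjusted p = 0.0357).

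On the oxidation side of input, Eci2 had 19.89, 20.4, 25.42 and 20.26 FPKM in LPS libraries of PFC, against 13.73, 13.81, 15.3 and 14.43 in PBS libraries (0.53 ± 0.0856, adjusted p = 0.000442; 0.42 in VCX, adjusted p = 0.00264). Etfb rose by 0.41 (adjusted p = 0.002) and 0.35 (adjusted p = 0.00607). In PFC input alone, Echs1 rose by 0.53 (adjusted p = 0.0113), Slc25a20, the carnitine-acylcarnitine carrier, by 0.28 (adjusted p = 0.0328) and Acaa2 by 0.25 (adjusted p = 0.0402). In VCX input alone, Acsbg1 fell by 0.18 (adjusted p = 0.019). No LPS effect of input was called different between areas (0.0%). At an unadjusted p under 0.05 (limma), 1743 of 14676 genes differed on day 1. They included 6 of the genes described here, among them Echs1, Slc25a20 and Acsbg1. The calls of Slc25a20 and Acaa2 in PFC input were lost on leaving out any of 6 libraries in turn, with an adjusted p of up to 0.106 and 0.123. Those of Elovl2 were lost on leaving out any of 7 in PFC input (up to 0.148) and any of 6 in VCX input (up to 0.13), and that of Fasn in PFC input any of 3 (up to 0.0538). Hsd17b4 was not called in input, and its LPS effect was larger in IP by 0.23 ± 0.0587 (adjusted p = 0.00589). In the contrast of IP and input effects on day 1, 15.2% of all genes were called and 3 of the 34, namely Acsl5, Hsd17b4 and Fasn. In input, microglia and macrophage markers summed to 319 to 436 FPKM after LPS and 212 to 236 after PBS on day 1, endothelial markers to 76.1 to 88.1 and 40.0 to 50.2, and astrocyte markers to 1010 to 1160 and 959 to 1110; their part in these changes was not tested. On day 2 none of 33 genes was called in PFC input (3.74% of all genes; 6 of the 33 at an unadjusted p under 0.05; 1 by limma-voom), and in VCX input 1 was lower, where 2.05% were called. That gene was Acsbg1, with 46.52, 44.95 and 42.39 FPKM after LPS and 55.27, 56.03, 51.78 and 49.71 after PBS (-0.28 ± 0.0661, adjusted p = 0.0408); the call was lost without PBS replicate 1 or 2 or LPS replicate 2 or 3, among others. On day 14 none was called in either input (0.0% of all genes by limma; none of the 34 in PFC and 4 in VCX at an unadjusted p under 0.05).

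In whole PFC tissue on day 1 none of the 34 genes was called with all 7 libraries, where 0.027% of all genes were called by limma. At an unadjusted p under 0.05 there were 10 of the 34 and 2595 genes in all, and limma-voom called 1 of the 34. The library labelled PBS replicate 3 lay near the LPS libraries for inflammation genes. Lcn2, an acute-phase gene, had 40.36, 49.35 and 52.85 FPKM in LPS libraries, against 0.4935, 0.9421, 22.44 and 0.2225 in PBS libraries. Gfap, the astrocyte intermediate filament, had 110.9, 137.3 and 137.1 FPKM after LPS and 27.49, 30.77, 96.56 and 34.72 after PBS. The third PBS value of both stands out. Without that library, left out after the data were seen, 7 of the 34 were called, 1 higher and 6 lower, where 9.73% of all genes were called (7.12% higher and 2.61% lower). Scd1 had 39.4, 39.45 and 42.21 FPKM after LPS and 55.94, 48.88, 42.16 and 58.37 after PBS; its change was -0.37 ± 0.108 with all libraries (adjusted p = 0.17) and -0.45 ± 0.0712 without PBS replicate 3 (adjusted p = 0.0023). Fasn changed by -0.20 ± 0.0706 with all (adjusted p = 0.205) and -0.25 ± 0.0513 without it (adjusted p = 0.0125), and Hsd17b4 by 0.17 (adjusted p = 0.205) and 0.23 ± 0.0475 (adjusted p = 0.0108). Scd2 (-0.22), Fabp5 (-0.26), Acsl3 (-0.20) and Acacb (-0.62) were the others called without it. Fabp7 had 19.22, 31.22 and 26.52 FPKM after LPS and 23.17, 19.94, 22.78 and 27.52 after PBS, which overlap, with a change of 0.08 ± 0.177 (adjusted p = 0.859); the fall of Fabp7 in PFC input on the same day was 1.05. Whole tissue and input came from different sequencing projects, and the difference between them was not tested.

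In PBS mice few of these genes differed between PFC and VCX, and Scd1 and Fabp5 were called on each of the 3 days in astrocyte IP, the day 14 call of Fabp5 being lost on leaving out any of 6 libraries in turn (adjusted p of up to 0.0825). In IP, 7.98% of all genes were called on day 1 (3.83% higher and 4.15% lower in PFC), 7.68% on day 2 and 4.8% on day 14; in input the shares were 13.5%, 16.4% and 8.1%. Scd1 had 385.9, 369.4, 360.7 and 395.7 FPKM in PFC IP on day 1, against 295.8, 327.4, 271.2 and 241.2 in VCX IP. Its PFC minus VCX difference was 0.39 ± 0.0879 on day 1 (adjusted p = 0.0111), 0.61 ± 0.0545 on day 2 (adjusted p = 6.52e-06) and 0.64 ± 0.0777 on day 14 (adjusted p = 0.000133) on the log2 scale. In input the difference of Scd1 was 0.47 (adjusted p = 5.24e-05), 0.40 (adjusted p = 0.00939) and 0.46 (adjusted p = 0.0146). Scd1 was higher in PFC in all 6 comparisons and its libraries did not overlap between areas. Fabp5 was lower in PFC, with 167.0, 173.0, 172.9 and 157.1 FPKM in PFC IP on day 1 and 245.7, 192.9, 246.8 and 249.9 in VCX IP. The difference of Fabp5 was -0.51 ± 0.0736 on day 1 (adjusted p = 0.000285), -0.50 on day 2 (adjusted p = 0.000443) and -0.42 on day 14 (adjusted p = 0.0192), and it was not called in input. Slc25a20 was called in IP on day 14 (0.23, adjusted p = 0.0459; lost on leaving out any of 7 libraries in turn, up to 0.152). In input, Ehhadh had 1.252, 1.242, 1.103 and 1.13 FPKM in PFC on day 1 and 0.7742, 0.6008, 0.5604 and 0.6591 in VCX (0.80 ± 0.166, adjusted p = 0.00345; 0.51 on day 2, adjusted p = 0.0354). Acsbg1 was lower in PFC input on days 1 (-0.19, adjusted p = 0.0154) and 2 (adjusted p = 0.043), and Acaca was higher on day 1 (0.24, adjusted p = 0.0107). In input, calls were lost on leaving out any of 6 libraries in turn for Ehhadh on day 2 (adjusted p of up to 0.104), any of 2 and any of 5 for Acsbg1 on days 1 and 2 (up to 0.0568 and 0.124) and any of 2 for Scd1 on day 14 (up to 0.0616). Without PBS replicate 4 of VCX IP, the day 1 comparison of areas gave 7 genes higher and 3 lower in place of 1 and 1, with 18.6% of all genes called (9.51% higher and 9.12% lower). The 7 were Acads (0.52), Echs1 (0.33), Scd1 (0.30), Acaa2 (0.28), Acadvl (0.26), Eci1 (0.22) and Slc25a20 (0.20), and the 3 were Fabp5 (-0.49), Acsl3 (-0.39) and Elovl2 (-0.24).

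**Figure D4:**
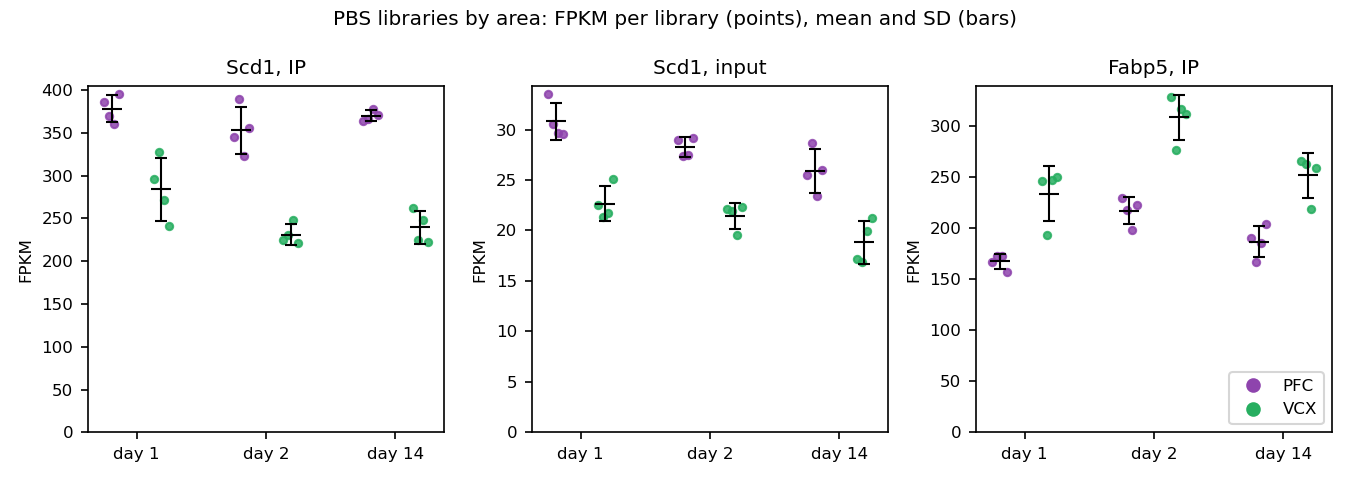
FPKM in each PBS library (y axis, points) with the group mean and SD (bars) by day (x axis), PFC left of VCX, for Scd1 in IP, Scd1 in input and Fabp5 in IP. Scd1 is higher in PFC and Fabp5 in VCX on each day; the lowest VCX value of Fabp5 on day 1 is 192.9 FPKM.

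Other genes of fatty acid metabolism and linked pathways, 106 from a list, moved both ways in astrocyte IP. On day 1, 19 rose and 12 fell of 92 tested in PFC, and 19 rose and 10 fell in VCX, where 11.1% and 11.3% of all genes were called higher and 9.92% and 10.6% lower. On day 2 it was 7 and 8 in PFC, where 5.17% of all genes were higher and 2.77% lower, and 4 and 9 of 93 in VCX, where 4.31% were higher and 2.94% lower. On day 14 none was called (0.0% of all genes). The 16 other mitochondrial oxidation genes include enzymes of amino acid breakdown, such as Ivd, Gcdh and Hibch. Of these 16, 5 rose in PFC and 4 in VCX on day 1 and none fell, against the same shares of all genes. Fads2, the delta-6 desaturase, fell by 0.68 ± 0.128 in PFC (adjusted p = 0.00118) and by 0.78 in VCX (adjusted p = 0.000325) on day 1. Acly, which makes cytosolic acetyl-CoA for synthesis, fell by 0.49 (adjusted p = 0.000207) and 0.52 (adjusted p = 0.000112), and Elovl6, the elongase of palmitate, by 0.39 (adjusted p = 0.00598) and 0.47 (adjusted p = 0.00148). Angptl4, a secreted lipase inhibitor and PPAR target, rose by 1.02 in PFC (adjusted p = 7.44e-07) and 1.25 in VCX (adjusted p = 8.75e-08), and Elovl7, an elongase of saturated long chains, by 0.59 (adjusted p = 0.0118) and 0.94 (adjusted p = 0.000345). Pparg, the nuclear receptor of lipid storage, fell by 0.54 in PFC (adjusted p = 0.0291) and was not called in VCX (-0.35, adjusted p = 0.149). Txnip was named by its change averaged over areas and was called in neither area alone (0.90, adjusted p = 0.214; 1.25, adjusted p = 0.0833).

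On day 2, Acss2, which makes acetyl-CoA from acetate, fell by 0.86 in PFC IP (adjusted p = 4.76e-05) and by 0.90 in VCX IP (adjusted p = 9.62e-06), and Acly by 0.55 (adjusted p = 0.00105) and 0.65 (adjusted p = 0.000103). Hacl1, an enzyme of peroxisomal alpha-oxidation, fell by 0.33 (adjusted p = 0.0219) and 0.37 (adjusted p = 0.00696), and Elovl6 was not called in either area (-0.40 and -0.48). Srebf1, the transcription factor of lipid synthesis, rose by 0.38 in PFC (adjusted p = 0.00363) and by 0.45 in VCX (adjusted p = 0.000386). Acaa1b, a peroxisomal thiolase close in sequence to Acaa1a, rose by 1.94 (adjusted p = 0.0146) and 1.79 (adjusted p = 0.0158) from low levels, and reads shared with the copy make its value uncertain.

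Hadhb, which encodes the thiolase subunit of the trifunctional protein, was the gene of the 34 whose level differed most between the days in PBS mice. In IP it averaged 25.1 ± 4.03 FPKM on day 1, 117 ± 4.96 on day 2 and 26.6 ± 2.54 on day 14 (SD, n = 8 each), and in input 4.88 ± 0.631, 16.3 ± 1.27 and 4.48 ± 0.550 FPKM. Hadha, its partner in the protein, averaged 73.6 FPKM on day 1, 83.5 on day 2 and 75.0 on day 14 in IP. The 2 genes lie head to head on chromosome 5, with RefSeq starts 273 bases apart, so that their 300-base windows share 228 bases. LPS libraries showed the same steps of Hadhb, at 29.4, 114 and 26.6 FPKM in IP. Acaca had a like pattern in PBS mice, at 11.7 ± 0.769, 25.5 ± 1.36 and 11 ± 0.880 FPKM in IP on days 1, 2 and 14. These are levels and carry no test, since day and sequencing project cannot be told apart, and no LPS contrast crosses the days other than as a difference of effects.

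**Figure D5:**
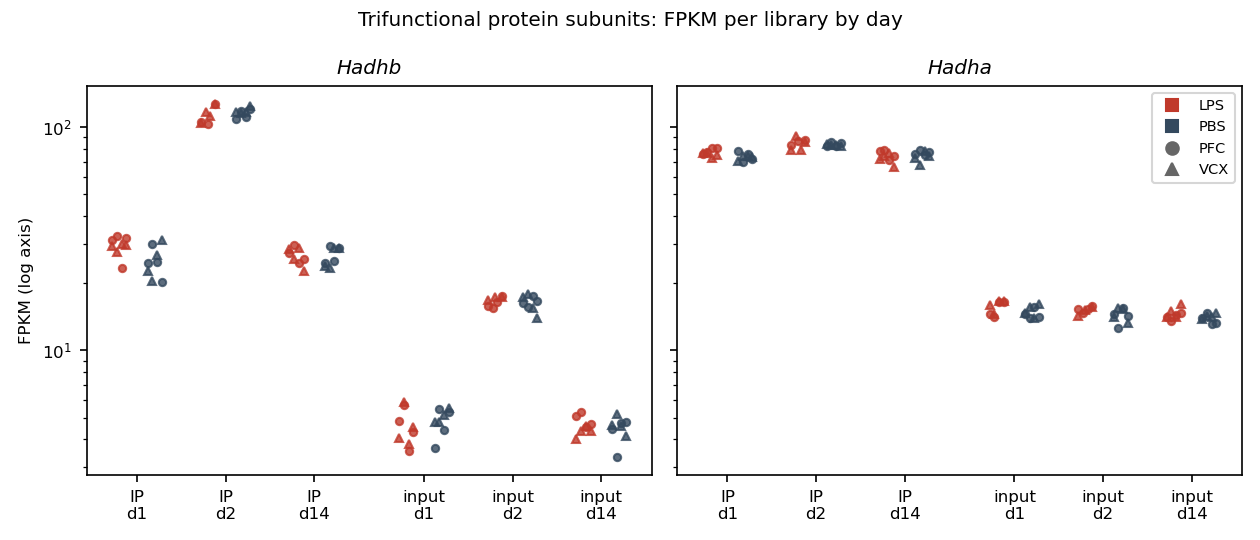
FPKM in each library (y axis, log scale) of Hadhb and Hadha by fraction and day (x axis), LPS in red and PBS in dark blue, circles for PFC and triangles for VCX. Hadhb is several times higher on day 2 than on days 1 and 14 in both fractions and both treatments, and Hadha is level.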

How the data were processed

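The authors deposited 1 table of FPKM values for each of 101 libraries, on 24060 entries; per the submitters' processing notes reads were aligned with STAR and counted with HTSeq on mm10, and versions and annotation are not given in the sources used here. Per the labels' protocols, polyA RNA was made into libraries with an Illumina TruSeq kit, and no use of strand in counting is stated, so that overlapping genes cannot be told apart. The deposited FPKM are relative to each library's total and gene length. 27 entries carry a date in place of a symbol and 4 entries were left out because their symbol is not unique. FPKM steps were whole multiples of 1 read for 21330 of 21330 genes (tolerance 0.05 reads), which gave depths of 4.21 M to 72.94 M reads (M, 1000000).

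FPKM were divided by TMM factors (30% of M values and 5% of A values trimmed) and tested as log2(FPKM + 0.1) with limma 3.58.1 (statmod 1.5.0, R 4.3.3; mean trend, robust), with sex as covariate except in whole tissue. A gene was tested where the libraries at 0.5 FPKM or more were no fewer than those of the smallest group, and p-values were adjusted over all of them by the Benjamini-Hochberg method. One model held the groups of each day within a fraction; differences of effects are interaction contrasts. The fit was tested on simulated data. Samples were grouped by the labels' treatment, area, day and RNA type; replicate numbers follow the order of deposition and pair nothing. The members and lists, and the tests, were chosen with earlier results of these data known. In each LPS comparison of IP and input up to 6 called members per direction with the largest change are named, and Cpt1a, Acsbg1, Hadha, Ppara, Fabp5, Fabp7, Fasn, Scd2 and Elovl2 on days 1 and 2 of IP whatever their result; of IP minus input the 5 largest and 5 smallest, of the areas up to 4 called per direction, and of the other pathway genes up to 4 called per direction and day (some are not reported here); libraries left out, Lcn2, Gfap and the day levels of Hadhb and Acaca were chosen after their values were seen. Alternatives were pseudocounts of 1 and 0.01, a filter at 2 FPKM and none, relative log expression factors and no scaling, limma-voom on recovered reads, no covariate, the groups of a comparison alone, and each library left out in turn. Promoter sequences are RefSeq's.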

Additional observations from a re-analysis of the deposited data

Results flagged for a closer look

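Some values were marked because 1 library lay far from the other 3 of its group. Of 99 groups of 4 libraries tested, 3 were marked, and chance marks about 1 group in 20. Acsbg1 stood at 764.2 FPKM in LPS replicate 4 of PFC IP on day 1, Fabp5 at 192.9 FPKM in PBS replicate 2 of VCX IP on day 1, and Fabp5 at 219.1 FPKM in PBS replicate 3 of VCX IP on day 14.

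Other values were marked because the LPS effect differed between days in astrocyte IP, by limma's test of the difference itself (areas averaged, log2 scale, adjusted p under 0.05). Day 14 minus day 1 was positive for Acsl6 (0.21), Cpt1a (0.22), Fabp5 (0.26), Fabp7 (1.38), Fasn (0.68), Acaca (0.25), Scd1 (0.48), Elovl2 (0.44) and Elovl5 (0.41). It was negative for Acsl5 (-0.74), Cpt2 (-0.40), Echs1 (-0.28), Eci1 (-0.27), Eci2 (-0.48), Acaa2 (-0.38), Etfa (-0.33), Etfb (-0.49), Hsd17b4 (-0.42), Ppara (-0.38) and Acacb (-0.55). Day 2 minus day 1 was positive for Ehhadh (0.27), Fabp7 (0.57), Fasn (0.26), Elovl2 (0.41) and Elovl5 (0.27). It was negative for Acsbg1 (-0.22), Acsl3 (-0.40), Cpt2 (-0.30), Echs1 (-0.33), Eci1 (-0.26), Eci2 (-0.40), Acaa2 (-0.40), Etfa (-0.40), Etfb (-0.40), Hsd17b4 (-0.28) and Ppara (-0.37). On leaving out 1 library at a time the day 2 minus day 1 call was lost 14 times for Acsbg1 and 13 times for Eci1, and the day 14 minus day 1 call 5 times for Fabp5. Day and sequencing project cannot be told apart.

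The LPS effect also differed between IP and input on the log2 scale. The IP effect minus the input effect was 0.71 for Acsl5, 0.23 for Hsd17b4 and -0.39 for Fasn on day 1, and 0.40 for Acsl5 on day 2 (areas averaged, limma, adjusted p under 0.05).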

How the results depend on the processing

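Of 301 counts of the 34 genes recomputed under other settings, 288 stayed within 1.5 times. With the 2 groups of a comparison fitted alone, the day 2 counts were 3 in PFC IP (6 with the day's groups together), 5 in VCX IP (8), 1 in PFC input (0) and 0 in VCX input (1). VCX input on day 2 gave 2 with relative log expression factors, 0 with FPKM as deposited and 2 with limma-voom. PFC input on day 2 and whole tissue gave 1 each with limma-voom (0 each). The area difference of PBS input on day 14 gave 2 with relative log expression factors and 5 with limma-voom (1). The difference of LPS effects between IP and input on day 1 gave 6 with a pseudocount of 1 and 6 with no scaling (3). The cause was not tested. The day 1 and day 14 counts of IP and the IP minus input counts were among the 288. Of 1371 log2 values of 162 named results, 1337 kept their direction and side of the threshold, 26 lost and 5 gained the call, and 3 near 0 changed sign, none of them called: Cpt1a in VCX IP on day 2 (0.00064 with relative log expression factors) and Ppara in PFC IP on day 2 (-0.025 with no scaling and -0.0012 with no covariate). Calls lost included Fabp5 and Acsl5 in PFC IP on day 2, with adjusted p of up to 0.132 and 0.205, and Fasn in VCX IP on day 2, up to 0.107.

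Leaving out 1 library at a time gave 13 to 19 called genes in PFC IP and 16 to 23 in VCX IP on day 1, 2 to 6 and 4 to 8 on day 2, and 0 in both on day 14. In input the counts were 8 to 11 in PFC and 7 to 10 in VCX on day 1, 0 and 0 to 1 on day 2, and 0 on day 14. Whole tissue gave 0 to 7. The differences between areas in PBS gave 2 to 10, 2 and 1 to 2 in IP on days 1, 2 and 14, and 3 to 4, 1 to 3 and 0 to 2 in input. IP minus input gave 34 in every case. The IP and input effects differed for 3 to 8 genes on day 1, 1 to 2 on day 2 and 0 on day 14, and the effects of days 2 and 14 differed from day 1 for 12 to 18 and 19 to 21 genes. The day 1 difference of IP and input effects became 5 without LPS replicate 3 of PFC IP or PBS replicate 3 of VCX IP, 8 without PBS replicate 4 of VCX IP and 6 without PBS replicate 1 of PFC input; that of day 2 became 2 without LPS replicate 2 of PFC IP or of VCX IP. The area difference in IP on day 14 became 1 without PBS replicate 1, 2 or 3 of PFC or 1 or 2 of VCX. In input it became 1 on day 2 without PBS replicate 2 of PFC or 1 of VCX. On day 14 it became 2 without PBS replicate 3 or 4 of PFC or 4 of VCX, and 0 without PBS replicate 2 of VCX. Values near 0 that changed sign ranged from -0.020 to 0.053 for Acsbg1 in PFC IP and from -0.049 to 0.064 in VCX IP on day 1. On day 2 they ranged from -0.059 to 0.00062 for Cpt1a in PFC IP and -0.037 to 0.061 in VCX IP, from -0.030 to 0.037 for Ppara in PFC IP and from -0.027 to 0.033 for Hadha in VCX IP. No paired analysis was possible because the labels give no animal or pair for any library. Depth limits low genes most: Acacb was under the filter in input, and 3 input libraries of day 14 held under 10 M reads.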

Other observations

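Fabp7 stood at 19.2 to 31.2 FPKM in the 3 LPS libraries and at 19.9 to 27.5 FPKM in the 4 PBS libraries of whole PFC on day 1, all from females. In PFC input of the same day, from both sexes, it stood at 11.9 to 21.3 FPKM in LPS libraries and at 24.7 to 40.4 FPKM in PBS libraries.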
